A study of Mus musculus with 18 samples.

Results

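The p53 target genes described here are 34 named genes of the 54532 in a table of gene counts from 10T1/2 cells, a multipotent mouse fibroblast line. They are *Trp53* itself, genes of its feedback loop and further genes known as p53 targets, and all 34 symbols were found in the table. Of these, 33 were among the 14317 genes that passed the filter on low counts and were tested. *Pmaip1* did not pass. The 18 libraries were bulk poly(A) RNA, 3 in each of 6 groups. Each of 3 genotypes (WT, FOXS1 KO clone 1 and FOXS1 KO clone 2) was harvested either without treatment (uninduced) or following 12 h of TGF-β1 at 1 nM and then 48 h of DMII (stimulated), an adipogenic mix of insulin, indomethacin, dexamethasone and a phosphodiesterase inhibitor. The stimulated and uninduced groups differ in both agents, whose parts cannot be told apart. The methods of the study also name overnight serum starvation before TGF-β1 and, for DMII, a base medium other than that used for growth. How the uninduced cells were handled in these respects is not given in the sources used here. Each clone grew from 1 cell that had received Cas9 with 2 guides against *Foxs1* and puromycin selection, so that the 3 libraries of a clone are not separate edits. WT clones carried through the same selection were not analysed here, and loss of FOXS1 cannot be told apart from what a clone acquired on the way. The comparisons of both clones with WT use the same WT libraries. The labels do not say whether the 3 libraries of a group came from separate cultures, and the p-values measure the spread between these libraries only.

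The transcription factor p53 is held low in unstressed cells by the ubiquitin ligase MDM2, which is itself a product of a p53 target gene. ARF, one of the products of the *Cdkn2a* locus, binds MDM2 and relieves this inhibition, and DNA damage signalling does so through the kinases ATM and CHK2. Stabilized p53 binds response elements near genes for cell cycle arrest, apoptosis, DNA repair and metabolism, and many of these genes also answer to other factors. In fibroblasts, p21, the product of *Cdkn1a*, is the best known effector of p53-dependent arrest.

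Levels are given as counts per M counts after TMM scaling (CPM), and log2 fold changes above 0 denote more RNA in the clone or after stimulation. A gene is said to have risen or fallen where edgeR's quasi-likelihood test gave a Benjamini-Hochberg adjusted p below 0.05 over the 14317 tested genes and the change was more than 2-fold. Library totals ran from 15576685 to 42005596 counts. *Foxs1* (ENSMUSG00000074676, chr2:152931898-152933208, GRCm38) had 2.23 ± 0.886 CPM (SD, n = 3) in uninduced WT libraries and 25.7 ± 2.04 and 22.6 ± 1.44 CPM in the libraries labelled clones 1 and 2. In stimulated cells it had 2.51 ± 0.641, 54.5 ± 2.06 and 39.9 ± 2.59 CPM. Its gene total therefore does not show the edit, and each direction below rests on the genotype labels, with WT, clone 1 and clone 2 standing for the libraries labelled so. In the study the clones were checked at the protein level by western blot and by sequencing of the edited locus, and neither was analysed here. All 8 fibroblast markers were detected in every group, although *Thy1* was at 0.616 CPM in uninduced clone 2 against 59.6 CPM in WT cells. Summed markers of epithelial, immune, endothelial and skeletal muscle cells did not exceed 7.07 CPM in any library. Those of adipocytes reached 14.1 to 17.9 CPM in stimulated clone 1 and stayed at or below 1.18 CPM elsewhere. In bulk RNA, fewer cells expressing a gene and less RNA per cell cannot be told apart.

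Upstream of p53, no RNA of the *Cdkn2a* locus was detected in the clones. *Cdkn2a* (ENSMUSG00000044303, chr4:89274471-89294653), which encodes ARF and the kinase inhibitor p16INK4a, had 466, 679 and 946 counts in the uninduced and 595, 664 and 728 counts in the stimulated WT libraries, and no count in any of the 12 clone libraries. *Cdkn2b* (chr4:89306299-89311039), the neighbouring gene for the kinase inhibitor p15INK4b, had 676, 776 and 982 and 726, 849 and 757 counts in WT cells and again none in the clones. A count of 0 over a group was set to a floor of 3 counts, which covers counting error only. *Cdkn2a* was then at least 641-fold lower in uninduced clone 1, at least 944-fold in uninduced clone 2, and at least 683-fold and 501-fold lower in the stimulated clones. The gene on one side, *Mtap*, was expressed in every group (192 to 417 CPM), and *Dmrta1* on the other side was at or near 0 in all libraries. Any part of the *Cdkn2a* locus in the values of the p53 targets was not tested.

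The promoters of the members were searched for the p53 response element decamer, the 10-base unit of which a full p53 site holds a pair. RefSeq start sites on GRCm38.p6 were found for 26 of the 34 members, with 37 windows of the 250 bases before a start. A decamer matched in 11 of these windows (29.7%), beside 2341 of the 32851 windows of all genes (7.13%). The decamer reads the same on both strands, so 1 search covers both. A pair with a spacer of up to 13 bases occurred in 1 member window, that of *Cdkn1a*, and in 21 windows in all (0.0639%). The matches describe these letters and say nothing of binding in these cells. The *Cdkn1a* window (chr17:29090729-29090978, + strand) is shown because this gene rose in each clone under each treatment. Capitals mark the paired decamers, which span 29090906 to 29090937, have a spacer of 12 bases and lie 73 to 42 bases before the start.
Cdkn1a: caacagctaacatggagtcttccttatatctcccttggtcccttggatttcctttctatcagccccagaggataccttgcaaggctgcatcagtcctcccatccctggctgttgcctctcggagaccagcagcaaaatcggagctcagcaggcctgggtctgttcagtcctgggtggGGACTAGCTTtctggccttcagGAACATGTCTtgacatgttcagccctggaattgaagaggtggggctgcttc

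The decamer directly after the second match differs from the motif at 1 base. A further *Cdkn1a* window, at a downstream start, held no match. Shown next, for the feedback genes and for members described in detail, are 30-base stretches with the single decamer in capitals. Distances are given from the RefSeq start of each window. The stretches of *Gadd45a* and *Sesn1* lie inside the counted genes, before RefSeq starts downstream of the first base of the gene.
Trp53 (chr11:69580274-69580303, + strand, match starting 75 bases before the start): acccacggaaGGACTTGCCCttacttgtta
Mdm2 (chr10:117710925-117710954, - strand, match starting 186 bases before the start): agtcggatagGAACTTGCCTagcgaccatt
Ccng1 (chr11:40755452-40755481, - strand, match starting 185 bases before the start): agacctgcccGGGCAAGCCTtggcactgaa
Gadd45a (chr6:67037428-67037457, - strand, match starting 40 bases before the start): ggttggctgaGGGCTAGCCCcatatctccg
Sesn1 (chr10:41887256-41887285, + strand, match starting 173 bases before the start): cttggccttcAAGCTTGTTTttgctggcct
Ckap2 (chr8:22186003-22186032, - strand, match starting 203 bases before the start): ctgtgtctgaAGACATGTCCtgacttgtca
The windows of *Bax*, *Aen*, *Ei24* and *Polk* also held 1 decamer each. The matches of *Aen*, *Ei24* and *Polk* likewise lie inside the counted genes.

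Without stimulation, few p53 targets rose or fell in the clones, and those that rose in clone 1 were the arrest genes *Cdkn1a* and *Btg2* together with *Dcxr*, a sugar reductase gene. In clone 1, 3 members rose and 2 fell (*Apaf1* and *Perp*), 5 of 33 or 15.2%, beside 15.1% of all tested genes. In clone 2, *Cdkn1a* and *Ckap2* rose and *Perp* fell, 3 of 33 or 9.09%, beside 15.1% of all genes. The median log2 fold change over the members was 0.14 in clone 1 and 0.12 in clone 2, beside -0.0075 and -0.017 over all genes. With the adjusted p alone and no fold threshold, 19 members (57.6%) passed in clone 1 and 23 (69.7%) in clone 2, beside 53.5% and 53.2% of all genes. The share of members called was close to that of all genes in clone 1 and below it in clone 2. *Perp*, counted in both clones here and after stimulation, passed the filter on low counts only through its WT libraries.

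After TGF-β1 + DMII, the arrest gene *Cdkn1a* was 4.07-fold higher in clone 1 and 4.58-fold higher in clone 2 than in WT cells. In clone 1, *Cdkn1a*, *Btg2*, *Trp53inp1* and *Dcxr* rose and *Plk2*, *Apaf1* and *Perp* fell, 7 of 33 members or 21.2%, beside 19.0% of all genes. In clone 2, 8 members rose (*Cdkn1a*, *Btg2*, *Gadd45a*, *Trp53inp1*, *Phlda3*, *Dram1*, *Sesn1* and *Dcxr*) and 2 fell (*Plk2* and *Perp*), 10 of 33 or 30.3%, beside 16.9%. The members that rose in clone 2 were 24.2% of those tested, beside 7.95% of all genes, and in clone 1 they were 12.1%, beside 9.42%. The median log2 fold change over the members was 0.087 in clone 1 and 0.34 in clone 2, beside -0.015 and -0.0097 over all genes. With the adjusted p alone, 21 members (63.6%) passed in clone 1 and 26 (78.8%) in clone 2, beside 58.9% and 56.0% of all genes. The map of log2 fold changes gives all 33 tested members by role.

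**Figure D1:**
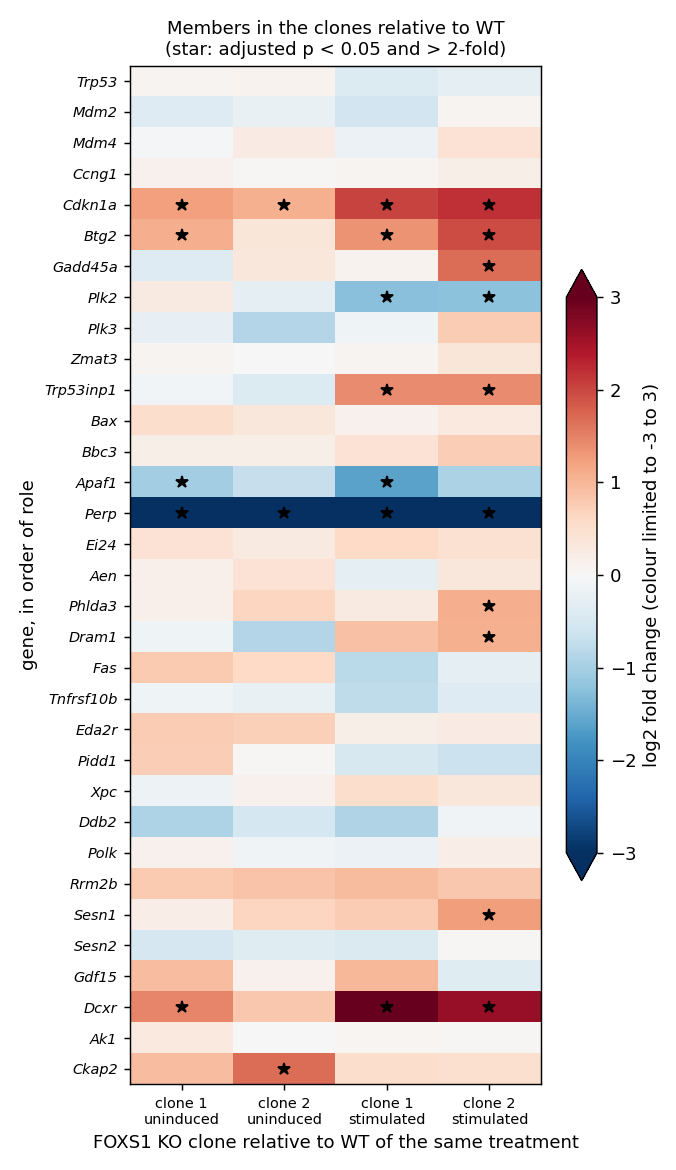
Log2 fold change of each tested member (rows, in order of role) for the clones against WT cells under the same treatment (columns), with colour limited to -3 to 3 and stars for members that rose or fell. *Cdkn1a* carries a star in all 4 columns on the red side and *Perp* in all 4 on the blue side. *Perp* was tested only through its counts in WT libraries.

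None of the 4 genes of p53 and its feedback loop rose or fell in either clone. In uninduced cells *Trp53* had 157, 144 and 142 CPM in the WT libraries, 160.0, 162 and 149 CPM in clone 1 and 163, 154 and 162 CPM in clone 2. After stimulation *Trp53* had 179, 180.4 and 173 CPM in WT cells, 131, 129 and 138 CPM in clone 1 and 149.5, 145 and 150.2 CPM in clone 2. *Trp53* (ENSMUSG00000059552, chr11:69580359-69591873) encodes p53 and is regulated mainly at the protein level, which RNA does not show. The groups overlapped in uninduced cells, and both stimulated clones lay below every stimulated WT library, with a log2 fold change of -0.42 (SE 0.0491, adjusted p = 1.63e-08) in clone 1 and -0.26 (SE 0.0494, adjusted p = 4.67e-05) in clone 2. After stimulation *Trp53* was higher in WT cells (0.27) and lower in clone 1 (-0.24), both under 2-fold, and the value of clone 2 (-0.11) missed the adjusted p (0.0625, edgeR).

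In uninduced cells *Mdm2* had 79.0, 79.6 and 81.7 CPM in the WT libraries, 56.5, 66.3 and 60.8 CPM in clone 1 and 70.8, 68.3 and 66.1 CPM in clone 2. After stimulation *Mdm2* had 93.6, 88.2 and 86.1 CPM in WT cells, 61.5, 62.8 and 55.6 CPM in clone 1 and 93.2, 95.8 and 95.1 CPM in clone 2. *Mdm2* (ENSMUSG00000020184, chr10:117688875-117710758) lay below WT cells in both uninduced clones and in stimulated clone 1, while stimulated clone 2 overlapped WT cells. The log2 fold change was -0.39 (SE 0.0617, adjusted p = 4.04e-06) in uninduced clone 1, -0.23 (SE 0.0606, adjusted p = 0.00241) in uninduced clone 2 and -0.57 (SE 0.0609, adjusted p = 2.28e-09) in stimulated clone 1. Chromosome 10, which carries *Mdm2*, had a median log2 fold change of -0.41 and -0.43 over its 726 tested genes in uninduced and stimulated clone 1, and 0.046 and 0.048 in clone 2. The part of this shift in *Mdm2* was not tested. *Mdm4*, whose product binds p53 and blocks its activation domain, had log2 fold changes of -0.16 to 0.43 over the 4 comparisons with group means of 32.3 to 48.7 CPM.

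In uninduced cells *Ccng1* had 204, 207 and 217 CPM in the WT libraries, 236, 217 and 236 CPM in clone 1 and 216, 218 and 211 CPM in clone 2. After stimulation *Ccng1* had 144, 144 and 150.5 CPM in WT cells, 155, 154 and 154 CPM in clone 1 and 152, 173 and 170.4 CPM in clone 2. *Ccng1* (ENSMUSG00000020326, chr11:40748552-40755311) encodes cyclin G1, which brings a phosphatase to MDM2 and is among the most regular p53 targets. Clones and WT cells overlapped when uninduced and were narrowly separated after stimulation, with log2 fold changes of 0.038 to 0.18 in the 4 comparisons. It was lower after stimulation in every genotype, with log2 fold changes of -0.52 (WT), -0.57 (clone 1) and -0.38 (clone 2), each under 2-fold.

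**Figure D2:**
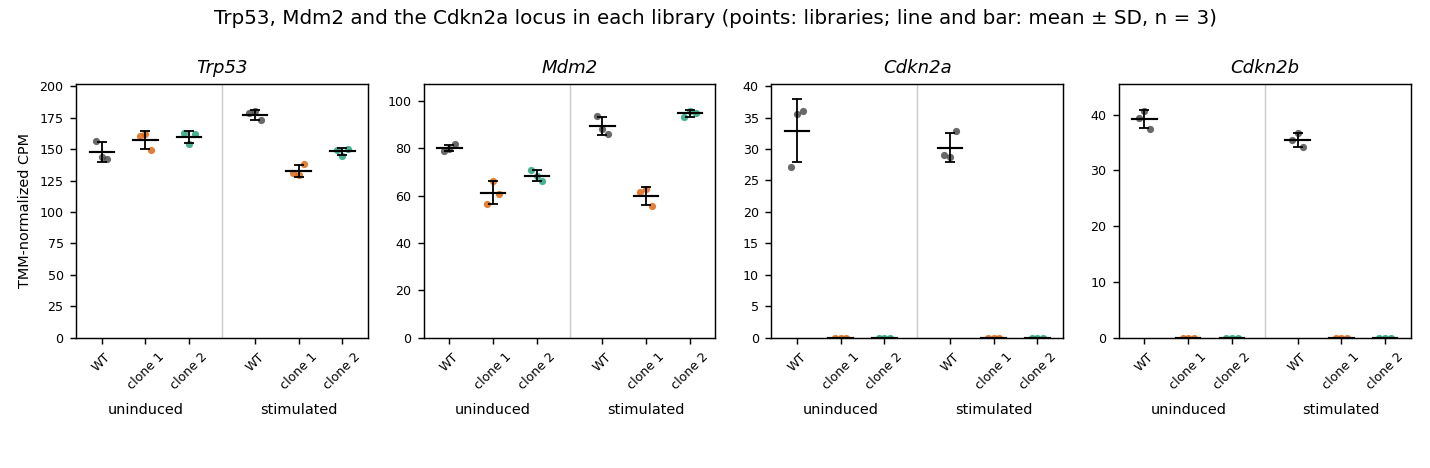
TMM-normalized CPM of *Trp53*, *Mdm2*, *Cdkn2a* and *Cdkn2b* in each library (points) with mean ± SD of 3 libraries, by genotype and treatment. *Trp53* and *Mdm2* were expressed in all groups, and *Cdkn2a* and *Cdkn2b* had no count in any clone library.

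Among the arrest genes, *Cdkn1a* (ENSMUSG00000023067, chr17:29090976-29100727), which encodes the cyclin dependent kinase inhibitor p21, was higher in both clones under both conditions. In uninduced cells *Cdkn1a* had 139.8, 124 and 113 CPM in the WT libraries, 287, 301 and 290.2 CPM in clone 1 and 264, 269.7 and 253 CPM in clone 2. After stimulation *Cdkn1a* had 63.3, 58.7 and 64.5 CPM in WT cells, 257, 251 and 250.02 CPM in clone 1 and 275, 284 and 296 CPM in clone 2. All 6 clone libraries of a treatment lay above the 3 WT libraries. In log2 units the uninduced difference was 1.22 (SE 0.0572, adjusted p = 3.00e-17) in clone 1 and 1.06 (SE 0.0569, adjusted p = 6.93e-16) in clone 2. In stimulated cells it was 2.02 (SE 0.0595, adjusted p = 1.78e-22) and 2.20 (SE 0.0598, adjusted p = 3.35e-23). Stimulation lowered *Cdkn1a* in WT cells, with a log2 fold change of -1.01 (adjusted p = 3.78e-15, edgeR), and the clones had -0.21 and 0.12. This difference in response was 0.80 (SE 0.0812, adjusted p = 2.93e-09) for clone 1 and 1.13 (SE 0.0813, adjusted p = 2.24e-12) for clone 2. Without uninduced WT replicate 3, the uninduced value of clone 2 was 0.996, just under 2-fold. Another gene on the opposite strand, AC167363.2, covers 7.68% of its exonic bases, and the strand setting of the counting is not given in the sources used here.

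*Btg2* (ENSMUSG00000020423, chr1:134075170-134079120), an antiproliferative gene whose product binds the CCR4-NOT deadenylase, had the same order as *Cdkn1a* in stimulated cells. In uninduced cells *Btg2* had 51.0, 62.9 and 68.3 CPM in the WT libraries, 116, 155 and 121 CPM in clone 1 and 75.0, 87.5 and 72.5 CPM in clone 2. After stimulation *Btg2* had 27.4, 32.7 and 28.9 CPM in WT cells, 73.7, 87.4 and 64.0 CPM in clone 1 and 111, 122 and 113 CPM in clone 2. Every clone library lay above every WT library of its treatment, but the 3 uninduced clone 1 libraries were widely spread. The log2 fold change was 1.10 (SE 0.139, adjusted p = 8.70e-06) in uninduced clone 1, 1.34 (SE 0.147, adjusted p = 1.46e-06) in stimulated clone 1 and 1.96 (SE 0.148, adjusted p = 2.22e-08) in stimulated clone 2, while uninduced clone 2 stayed under 2-fold (0.36). Stimulation lowered *Btg2* in WT cells (-1.04 (SE 0.149, adjusted p = 2.31e-05)), and in clone 2 it was 0.56, a difference in response of 1.59 (SE 0.202, adjusted p = 2.01e-05). Clone 1 had -0.80 (adjusted p = 1.61e-04, edgeR), and its difference from the WT response, 0.24 (SE 0.201, adjusted p = 0.416), did not pass. Without uninduced WT replicate 1 or uninduced clone 1 replicate 2, the uninduced value of clone 1 was 0.99 or 0.96, under 2-fold.

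*Gadd45a* (ENSMUSG00000036390, chr6:67035096-67037457) encodes a stress sensor that acts in arrest and repair, and it separated the clones. In uninduced cells *Gadd45a* had 18.9, 22.2 and 24.0 CPM in the WT libraries, 16.4, 18.9 and 14.9 CPM in clone 1 and 27.9, 27.4 and 27.0 CPM in clone 2. After stimulation *Gadd45a* had 41.0, 43.6 and 37.1 CPM in WT cells, 44.5, 46.9 and 40.5 CPM in clone 1 and 133, 130.4 and 124 CPM in clone 2. Stimulated clone 2 lay far above all other groups, and stimulated clone 1 overlapped WT cells. The log2 fold change in stimulated cells was 1.67 (SE 0.0819, adjusted p = 5.79e-17) in clone 2 and 0.12 in clone 1, and clone 1 relative to clone 2 was at -1.56 (SE 0.0813, adjusted p = 9.04e-16). Stimulation raised *Gadd45a* by 1.40 (SE 0.0902, adjusted p = 4.50e-14) in clone 1 and 2.24 (SE 0.0840, adjusted p = 7.09e-20) in clone 2, and WT cells had 0.90, under 2-fold. The difference from the WT response was 1.34 (SE 0.120, adjusted p = 2.70e-10) in clone 2. E230016M11Rik, on the opposite strand, covers 19.1% of its exonic bases.

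The polo like kinase genes *Plk2* and *Plk3* did not move together. In uninduced cells *Plk2* had 156, 174 and 184 CPM in the WT libraries, 205, 212 and 198 CPM in clone 1 and 135, 138 and 153 CPM in clone 2. After stimulation *Plk2* had 307, 327 and 299 CPM in WT cells, 117, 129.5 and 145 CPM in clone 1 and 145, 127 and 126 CPM in clone 2. *Plk2* (ENSMUSG00000021701, chr13:110395046-110400844) was below WT cells in all 6 stimulated clone libraries, with a log2 fold change of -1.25 (SE 0.0725, adjusted p = 1.60e-13) in clone 1 and -1.23 (SE 0.0731, adjusted p = 3.08e-13) in clone 2. The stimulated WT libraries were the highest of all. The difference in response was -1.51 (SE 0.102, adjusted p = 1.19e-11) for clone 1 and, just under 2-fold, -0.95 (SE 0.102, adjusted p = 6.10e-08) for clone 2. The latter passed 2-fold without uninduced WT replicate 3 (-1.02) or stimulated clone 2 replicate 1 (-1.03).

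In uninduced cells *Plk3* had 7.98, 12.5 and 10.6 CPM in the WT libraries, 7.79, 8.74 and 9.79 CPM in clone 1 and 6.001, 4.69 and 6.32 CPM in clone 2. After stimulation *Plk3* had 17.5, 22.8 and 19.9 CPM in WT cells, 20.8, 17.96 and 16.1 CPM in clone 1 and 35.5, 34.2 and 32.5 CPM in clone 2. *Plk3* (ENSMUSG00000028680, chr4:117128655-117133963) was higher after stimulation in every genotype, without overlap. Its response was 2.58 (SE 0.143, adjusted p = 1.29e-15) in clone 2, 1.06 in clone 1 and 0.95, under 2-fold, in WT cells, and clone 2 exceeded the WT response by 1.63 (SE 0.198, adjusted p = 1.09e-07). The response of clone 1 came to 0.98 or 0.97 without its uninduced or its stimulated replicate 1. The WT response passed 2-fold without uninduced WT replicate 2 (1.10) or stimulated WT replicate 1 (1.05), and *Plk3* in uninduced clone 2, at -0.87, came to -1.01 without uninduced WT replicate 1. *Zmat3*, which encodes an RNA-binding regulator of splicing, neither rose nor fell, with log2 fold changes of -0.02 to 0.36 in the clones and group means of 49.8 to 65.1 CPM.

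*Trp53inp1* (ENSMUSG00000028211, chr4:11156431-11174379), whose product acts with p53 in stress signalling and autophagy, differed from WT cells by treatment. In uninduced cells *Trp53inp1* had 200.001, 175 and 169 CPM in the WT libraries, 168, 170.5 and 179 CPM in clone 1 and 143, 131 and 133 CPM in clone 2. After stimulation *Trp53inp1* had 50.6, 53.04 and 52.1 CPM in WT cells, 124, 147 and 149 CPM in clone 1 and 127, 144 and 145 CPM in clone 2. Stimulated WT libraries were the lowest group, and all 6 stimulated clone libraries lay above them. WT cells responded with -1.80 (SE 0.0707, adjusted p = 1.19e-18), clone 1 with -0.30 and clone 2 with 0.029. The stimulated clones stood at 1.43 (SE 0.0704, adjusted p = 2.30e-16) and 1.41 (SE 0.0710, adjusted p = 4.08e-16) on the log2 scale, while neither uninduced clone differed by 2-fold (-0.072 and -0.42). The difference in response was 1.501 (SE 0.0967, adjusted p = 4.13e-13) for clone 1 and 1.83 (SE 0.0973, adjusted p = 8.92e-15) for clone 2. The panels of values by library show these patterns together.

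**Figure D3:**
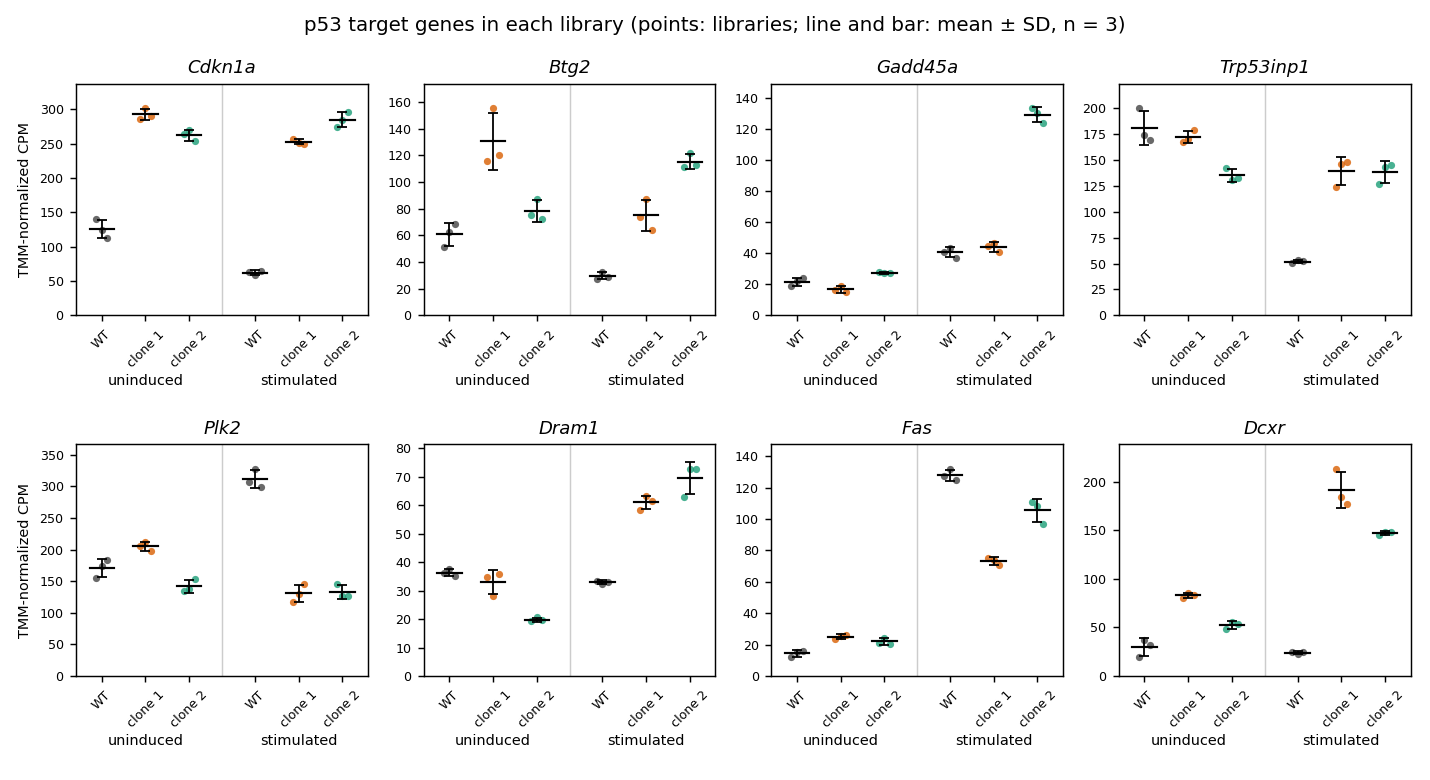
TMM-normalized CPM of 8 members in each library (points) with mean ± SD of 3 libraries, by genotype and treatment. In stimulated cells, *Cdkn1a*, *Btg2*, *Trp53inp1*, *Dram1* and *Dcxr* lie above WT cells in both clones, *Plk2* and *Fas* lie below, and *Gadd45a* is raised in clone 2.

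The apoptosis genes moved in both directions, and the effector and BH3-only genes of the BCL2 family did not rise. *Bax*, the pore-forming effector, had log2 fold changes of 0.13 to 0.52 in the 4 clone comparisons with group means of 70.1 to 101 CPM, and Gm45808 overlaps 12.2% of its exonic bases on the same strand. *Bbc3*, which encodes PUMA, had 0.17 to 0.74 with group means of 4.47 to 18.5 CPM. *Bbc3* fell on stimulation in every genotype, with log2 fold changes of -1.85 (WT), -1.58 (clone 1) and -1.30 (clone 2) (adjusted p = 2.05e-11, 3.20e-10 and 1.62e-08, edgeR). *Pmaip1*, which encodes NOXA, had 12, 14 and 9 counts in the stimulated WT libraries, 0, 0 and 2 in the uninduced ones and none in the clones. At the floor of 3 counts it was at least 12.04-fold lower in stimulated clone 1 and at least 8.83-fold in stimulated clone 2. In the fit without the filter its adjusted p was 0.00173 and 0.00378. When any 1 of 16 of the 18 libraries was left out, it passed the filter through its counts in the stimulated WT libraries alone. It then passed both thresholds in these comparisons, which is no support apart from those same counts.

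*Apaf1* (ENSMUSG00000019979, chr10:90989311-91082770), the scaffold of the apoptosome, was lower in both clones. In uninduced cells *Apaf1* had 38.7, 39.1 and 33.5 CPM in the WT libraries, 18.7, 18.3 and 17.04 CPM in clone 1 and 24.5, 20.5 and 23.0 CPM in clone 2. After stimulation *Apaf1* had 44.2, 46.7 and 45.9 CPM in WT cells, 12.9, 14.9 and 17.2 CPM in clone 1 and 24.8, 23.4 and 22.4 CPM in clone 2. Every clone library lay below every WT library of its treatment. The log2 fold change was -1.04 (SE 0.0969, adjusted p = 2.24e-10) in uninduced clone 1 and -1.60 (SE 0.0966, adjusted p = 7.83e-15) in stimulated clone 1, and -0.70 and -0.95, under 2-fold, in clone 2. *Apaf1* is also on chromosome 10, whose median was -0.41 and -0.43 in clone 1, and the part of this shift was not tested. Without uninduced WT replicate 2 or uninduced clone 1 replicate 3, the uninduced value was -0.99 or -0.996.

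*Perp* (ENSMUSG00000019851, chr10:18845020-18857073) encodes a membrane protein of desmosomes with a part in p53-dependent death, and its counts were low. It had 74, 61 and 125 counts in the uninduced and 16, 9 and 13 in the stimulated WT libraries. Clone 1 had 1, 0 and 8 and 1, 0 and 0 counts, and clone 2 had 1, 5 and 0 and 0, 2 and 0. The WT libraries lay above every clone library of their treatment. From the summed counts *Perp* was 26.6-fold lower in uninduced clone 1 (95% interval 13.8 to 58.8) and 58.7-fold lower in uninduced clone 2 (26.6 to 161). After stimulation the ratio was 39.2 (6.62 to 1589) and 14.4 (3.72 to 123). These intervals are exact and cover counting error only. The adjusted p of the 4 comparisons ran from 2.86e-07 to 0.00391 (edgeR). *Perp* passed the filter on low counts only through its WT libraries. These p-values are therefore no support apart from those same counts.

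*Phlda3* (ENSMUSG00000041801, chr1:135766119-135769136), an inhibitor of Akt, and *Dram1*, a lysosomal membrane gene of autophagy, rose in stimulated clone 2. In uninduced cells *Phlda3* had 134, 145 and 143 CPM in the WT libraries, 159.8, 148 and 164 CPM in clone 1 and 210.0, 229.6 and 219 CPM in clone 2. After stimulation *Phlda3* had 184, 178 and 166 CPM in WT cells, 231, 204 and 198 CPM in clone 1 and 391, 379 and 350.3 CPM in clone 2. All clone libraries lay above the WT libraries of their treatment, and the log2 fold change passed 2-fold only in stimulated clone 2, at 1.08 (SE 0.0582, adjusted p = 5.35e-16). The other 3 values were 0.16, 0.64 and 0.26. In uninduced cells *Dram1* had 36.1, 37.7 and 35.1 CPM in the WT libraries, 34.7, 28.1 and 35.8 CPM in clone 1 and 19.3, 20.6 and 19.5 CPM in clone 2. After stimulation *Dram1* had 33.5, 32.3 and 33.1 CPM in WT cells, 58.2, 63.0 and 61.4 CPM in clone 1 and 62.9, 72.6 and 72.6 CPM in clone 2. *Dram1* (ENSMUSG00000020057, chr10:88322804-88379080) lay below WT cells in uninduced clone 2 and above them in both stimulated clones. The log2 fold change in stimulated cells was 0.89 in clone 1 and 1.07 (SE 0.0793, adjusted p = 1.04e-12) in clone 2. Stimulation raised it in clone 2 (1.81 (SE 0.0821, adjusted p = 7.94e-18)) and left WT cells at -0.14, and the difference in response was 1.03 (SE 0.113, adjusted p = 1.58e-08) for clone 1 and 1.95 (SE 0.115, adjusted p = 2.77e-14) for clone 2. The value of clone 1 was 0.92 without its uninduced replicate 2, 0.995 without its stimulated replicate 2 and 0.99 without uninduced WT replicate 2. *Dram1* also lies on chromosome 10, whose median was -0.43 in stimulated clone 1 and 0.048 in stimulated clone 2. The part of this shift in *Dram1* was not tested. For *Ei24*, an endoplasmic reticulum protein gene, every clone library lay above the WT libraries of its treatment, but under 2-fold (log2 fold changes of 0.26 to 0.59). The nuclease gene *Aen* neither rose nor fell in the clones, with log2 fold changes of -0.29 to 0.45.

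Of the death receptor genes, *Fas* (ENSMUSG00000024778, chr19:34290659-34327770) had the widest response to stimulation of the tested members in WT cells. In uninduced cells *Fas* had 11.9, 15.4 and 16.0 CPM in the WT libraries, 23.4, 25.5 and 26.4 CPM in clone 1 and 21.2, 24.4 and 20.7 CPM in clone 2. After stimulation *Fas* had 128, 132 and 125 CPM in WT cells, 75.1, 73.9 and 70.5 CPM in clone 1 and 111, 109 and 97.1 CPM in clone 2. Uninduced clones lay above WT cells and stimulated clones below them, each without overlap and under 2-fold (log2 fold changes of 0.79 and 0.60 uninduced, -0.81 and -0.28 stimulated). The response was 3.14 (SE 0.0856, adjusted p = 3.17e-23) in WT cells, 1.54 (SE 0.0811, adjusted p = 3.35e-16) in clone 1 and 2.26 (SE 0.0809, adjusted p = 2.29e-20) in clone 2. The response minus that of WT cells was -1.60 (SE 0.117, adjusted p = 2.83e-12) in clone 1 and -0.88, under 2-fold, in clone 2. *Tnfrsf10b*, the mouse TRAIL receptor gene, and *Eda2r*, the ectodysplasin A2 receptor gene, neither rose nor fell in the clones, with -0.76 to -0.13 and 0.17 to 0.77 on the log2 scale. *Pidd1*, the scaffold gene of the PIDDosome, was near the limit of detection, with group means of 1.16 to 1.93 CPM and no adjusted p below 0.05 in the 4 clone comparisons. Without stimulated clone 2 replicate 2 it passed both thresholds in stimulated clone 2 (-1.02, adjusted p = 0.0490, edgeR), and without stimulated clone 1 replicate 2 in the difference of response of clone 1 (-1.47).

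No gene of DNA repair or nucleotide supply rose or fell in either clone with all libraries in the fit. *Xpc*, which encodes a lesion sensor of nucleotide excision repair, had log2 fold changes of -0.16 to 0.53 in the 4 comparisons. *Ddb2*, a second lesion sensor gene, had -0.94 to -0.12 at group means of 0.680 to 2.60 CPM, and Acp2 on the opposite strand covers 23.8% of its exonic bases. With 1 library left out, *Ddb2* passed both thresholds in uninduced clone 1 without uninduced WT replicate 3 (-1.14) or uninduced clone 1 replicate 2 (-1.36), and in stimulated clone 1 without its replicate 1 (-1.32). *Polk*, a translesion polymerase gene, had -0.17 to 0.19. *Rrm2b*, the p53-inducible ribonucleotide reductase subunit gene, was higher in both clones under both conditions but under 2-fold, by 0.77 and 0.86 uninduced and 0.94 and 0.80 stimulated (adjusted p = 2.63e-08 or lower, edgeR). It lies on chromosome 15, whose 566 tested genes had a median of 0.44 and 0.40 in the uninduced and 0.43 and 0.39 in the stimulated clones, and the part of this shift was not tested.

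Among the genes of stress and metabolism, *Dcxr* (ENSMUSG00000039450, chr11:120725399-120727281), which encodes dicarbonyl and L-xylulose reductase, had the highest log2 fold change of any member in stimulated cells. In uninduced cells *Dcxr* had 19.98, 37.5 and 32.4 CPM in the WT libraries, 80.2, 85.5 and 83.3 CPM in clone 1 and 48.3, 55.9 and 53.9 CPM in clone 2. After stimulation *Dcxr* had 24.7, 22.2 and 25.2 CPM in WT cells, 213, 184 and 178 CPM in clone 1 and 145, 148 and 148 CPM in clone 2. Every clone library lay above every WT library of its treatment. Its log2 fold change was 2.99 (SE 0.154, adjusted p = 2.73e-10) in stimulated clone 1, 2.62 (SE 0.154, adjusted p = 1.57e-09) in stimulated clone 2 and 1.46 (SE 0.152, adjusted p = 1.27e-06) in uninduced clone 1, and under 2-fold, at 0.80, in uninduced clone 2. Stimulation raised *Dcxr* in clone 1 (1.21 (SE 0.139, adjusted p = 3.39e-06)) and clone 2 (1.49 (SE 0.143, adjusted p = 4.38e-07)), and WT cells had -0.33 with overlapping libraries. The difference in response was 1.54 for clone 1 and 1.82 for clone 2 (adjusted p = 5.49e-05 and 1.17e-05, edgeR).

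In uninduced cells *Sesn1* had 97.1, 103 and 94.7 CPM in the WT libraries, 112, 113 and 114 CPM in clone 1 and 155, 156 and 148 CPM in clone 2. After stimulation *Sesn1* had 56.1, 54.8 and 59.9 CPM in WT cells, 97.8, 100.3 and 89.6 CPM in clone 1 and 134, 134 and 142 CPM in clone 2. *Sesn1* (ENSMUSG00000038332, chr10:41809935-41908424) encodes a sestrin that restrains mTORC1, and all clone libraries lay above the WT libraries of their treatment. It rose in stimulated clone 2, by 1.26 (SE 0.0549, adjusted p = 3.03e-18), and the other 3 values were 0.21, 0.64 and 0.75. *Sesn1* lies on chromosome 10, whose median was -0.43 in stimulated clone 1 and 0.048 in stimulated clone 2. The part of this shift in *Sesn1* was not tested. *Sesn2*, its relative under control of the integrated stress response as well, had log2 fold changes of -0.50 to 0.043. *Gdf15*, a secreted stress cytokine gene, had 21 and 12 counts over the WT groups, 37 and 25 over clone 1 and 35 and 7 over clone 2, uninduced and stimulated, and no difference was detectable at this depth. *Ak1*, an adenylate kinase gene, had -0.013 to 0.28.

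In uninduced cells *Ckap2* had 7.86, 11.01 and 9.57 CPM in the WT libraries, 17.8, 17.9 and 18.2 CPM in clone 1 and 30.5, 28.4 and 32.5 CPM in clone 2. After stimulation *Ckap2* had 11.7, 12.8 and 14.0 CPM in WT cells, 16.7, 17.04 and 21.8 CPM in clone 1 and 18.2, 20.2 and 15.8 CPM in clone 2. *Ckap2* (ENSMUSG00000037725, chr8:22168160-22185819) encodes a spindle protein expressed in dividing cells. All clone libraries lay above the WT libraries of their treatment, and the difference passed 2-fold in uninduced clone 2 (1.68 (SE 0.122, adjusted p = 8.98e-13)). The other values were 0.92 in uninduced clone 1 (1.03 without uninduced WT replicate 2) and 0.53 and 0.49 in the stimulated clones. Stimulation moved it by 0.43 in WT cells and -0.76 in clone 2, a difference of -1.19 (SE 0.173, adjusted p = 2.40e-06).

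Stimulation of WT cells raised *Fas* and lowered 6 p53 targets: *Cdkn1a*, *Btg2*, *Trp53inp1*, *Bbc3*, *Perp* and *Ddb2*. These were 7 of 33 members (21.2%), beside 19.9% of all genes, and those that fell were 18.2%, beside 13.6%. *Perp*, which passed the filter only through its WT libraries, had a log2 fold change of -2.80. *Ddb2* had -1.03 with an adjusted p of 0.0289 (edgeR). The values of *Cdkn1a*, *Btg2* and *Ddb2* lie at the 2-fold limit. They came to -0.93, -0.94 and -0.89 without uninduced WT replicates 1, 3 and 1. In that fit *Ddb2* missed the adjusted p as well (0.0660, edgeR), while *Cdkn1a* and *Btg2* kept it. In clone 1, *Gadd45a*, *Plk3*, *Fas* and *Dcxr* rose and *Bbc3* fell, 5 of 33 (15.2%), beside 16.7%. In clone 2, *Gadd45a*, *Plk3*, *Dram1*, *Fas* and *Dcxr* rose and *Bbc3* fell, 6 of 33 (18.2%), beside 17.7%. Without 1 library, *Ddb2* also passed in the response of clone 1 (uninduced WT replicate 1, clone 1 uninduced replicate 3 or stimulated replicate 1, -1.0003 to -1.40), as did *Perp* (clone 1 uninduced replicate 2 or stimulated replicate 1, adjusted p = 0.0304 and 0.0480, edgeR). With the adjusted p alone, 25 members (75.8%) passed for WT cells, 22 (66.7%) for clone 1 and 21 (63.6%) for clone 2, beside 60.7%, 54.5% and 55.8% of all genes.

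**Figure D4:**
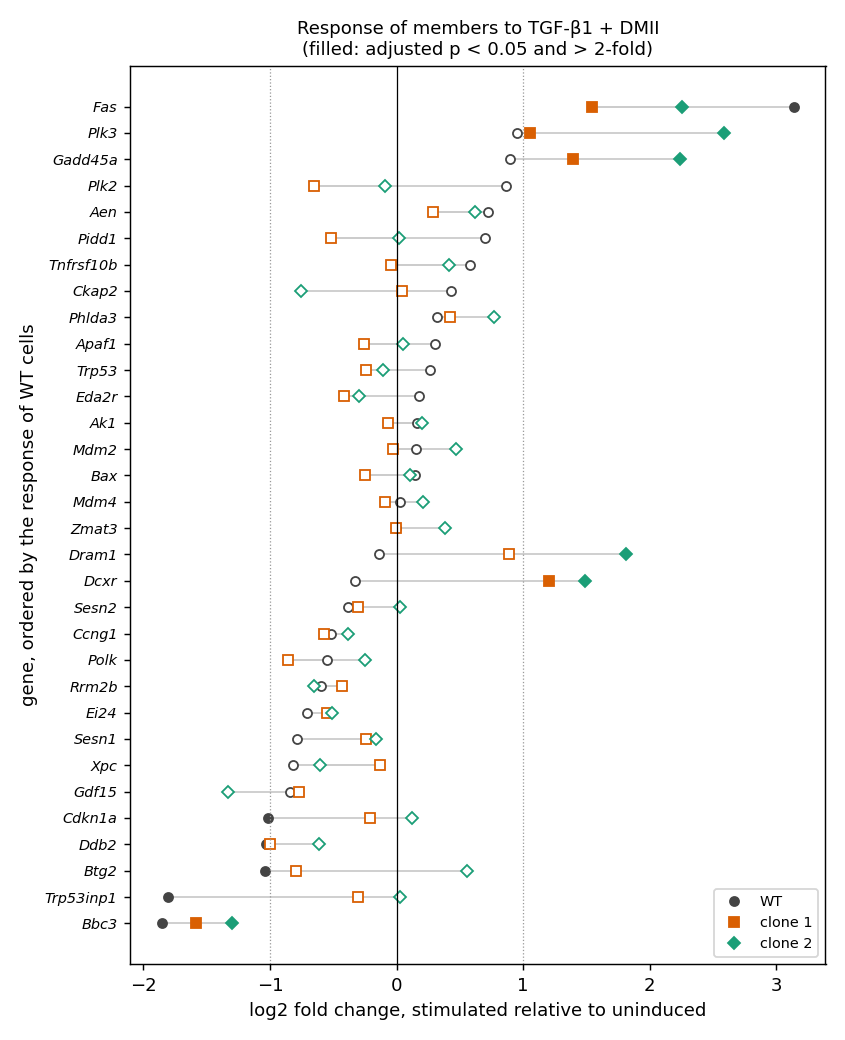
Log2 fold change of stimulated relative to uninduced cells for 32 members (rows, ordered by the WT value) in WT cells (circles), clone 1 (squares) and clone 2 (diamonds), with filled symbols for members that rose or fell and dotted lines at 2-fold. *Perp* is not shown because of its low counts. *Fas* lies at 3.14 in WT cells, and *Cdkn1a*, *Btg2* and *Trp53inp1* lie at -1.01, -1.04 and -1.80 in WT cells, at -0.21, -0.80 and -0.30 in clone 1 and at 0.12, 0.56 and 0.029 in clone 2.

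The difference in response between a clone and WT cells, tested as an interaction of genotype and treatment, addressed whether the clones answered TGF-β1 + DMII otherwise than WT cells. For clone 1 it was higher for *Trp53inp1*, *Dram1* and *Dcxr* and lower for *Plk2* and *Fas*, 5 of 33 members (15.2%), beside 8.81% of all genes. For clone 2 it was higher for *Cdkn1a*, *Btg2*, *Gadd45a*, *Plk3*, *Trp53inp1*, *Dram1* and *Dcxr* and lower for *Ckap2*, 8 of 33 (24.2%), beside 7.85%. The 7 that were higher in clone 2 were 21.2% of the members, beside 4.89% of all genes. The median difference over the members was 0.0017 in clone 1 and 0.21 in clone 2 on the log2 scale, beside -0.0067 and -0.0077 over all genes. With the adjusted p alone, 16 members (48.5%) passed for clone 1 and 17 (51.5%) for clone 2, beside 31.6% and 31.2% of all genes.

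The clones were also compared with each other. In uninduced cells none of the 33 members passed both thresholds with edgeR or DESeq2, beside 8.67% of all genes. Of the 33, 21 had an unadjusted p below 0.05 (edgeR). The share of all genes at this looser threshold was not computed, and is at least the 42.2% that passed the adjusted p. This count therefore shows no excess of members. In stimulated cells *Gadd45a* passed them, 1 of 33 (3.03%), beside 9.98%. *Perp* (1.02 uninduced, -1.16 stimulated) and *Gdf15* (1.36 stimulated) were beyond 2-fold and missed the adjusted p. With the adjusted p alone, 18 members (54.5%) differed in uninduced and 18 (54.5%) in stimulated cells, beside 42.2% and 45.4% of all genes. After stimulation 1 of the 18 was higher in clone 1 and 17 were higher in clone 2, 3.03% and 51.5% of the 33 members, beside 22.2% and 23.2% of all genes. The median log2 fold change of clone 1 relative to clone 2 over the members was 0.096 uninduced and -0.28 stimulated. Whole chromosomes also differed between the clones. Chromosome 10, with *Mdm2*, *Apaf1*, *Perp*, *Dram1* and *Sesn1*, had medians against WT cells of -0.43 in stimulated clone 1 and 0.048 in stimulated clone 2. Chromosome 17, with *Cdkn1a*, was shifted the other way (0.075 and -0.24). The part of these shifts in the counts above was not tested.

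Genes that act on p53 were described with a list of 21 regulators, 20 of them tested: 2 rose and 2 fell in uninduced clone 1, 1 and 2 in uninduced clone 2, 2 and 4 in stimulated clone 1, and 2 and 2 in stimulated clone 2. These were 20%, 15%, 30% and 20% of the list's tested genes, beside 15.1%, 15.1%, 19.0% and 16.9% of all genes. *Cdkn2a*, whose lack of counts in the clones was known beforehand, is among those that fell in each comparison. Besides *Cdkn2a*, the widest differences were those of *Trp63*, the p63 gene, of *Ppp1r13b*, whose product ASPP1 directs p53 to apoptosis genes, and of *Hipk2*, a kinase gene that acts on p53. *Hipk2* had log2 fold changes of 1.22 and 0.94 in uninduced and 1.80 and 1.64 in stimulated clones 1 and 2. *Ppp1r13b* had -2.15 and -1.10 in uninduced and -1.10 and -0.089 in stimulated clones 1 and 2, from 71.7 ± 4.33 CPM (SD, n = 3) in uninduced WT cells. *Trp63* had 3.21 and 1.89 in uninduced and 1.68 and 1.23 in stimulated clones 1 and 2, at group means of 0.753 to 8.96 CPM. The median over the list ran from -0.15 in uninduced clone 1 to 0.0047 in uninduced clone 2.

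A second list held 24 p53 target genes outside the members, 21 of them tested: 2 rose and 1 fell in uninduced clone 1, 3 and 0 in uninduced clone 2, 2 and 1 in stimulated clone 1, and 2 and 0 in stimulated clone 2. The called genes were 14.3%, 14.3%, 14.3% and 9.52% of the list's tested genes, beside 15.1%, 15.1%, 19.0% and 16.9% of all genes, and the medians were 0.20, 0.073, 0.019 and 0.10. *Susd6*, a membrane protein gene, had log2 fold changes of 0.94 and 0.97 in uninduced and 1.75 and 1.83 in stimulated clones 1 and 2, from 117 ± 0.521 CPM in stimulated WT cells to 395 ± 5.31 and 416 ± 8.35 CPM in the stimulated clones (SD, n = 3). *Fdxr*, the ferredoxin reductase gene, had 1.42 and 1.22 in uninduced and 0.33 and 0.24 in stimulated clones 1 and 2. *Steap3*, a metalloreductase gene of iron uptake, had -1.39 and -0.93 in uninduced and 0.15 and 0.10 in stimulated clones 1 and 2. *Sfn*, which encodes 14-3-3σ, had 1.41 and 1.88 in uninduced and 0.40 and -0.24 in stimulated clones 1 and 2 at group means of only 0.205 to 0.831 CPM.

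Cell cycle genes were measured beside the arrest genes. Of 12, 1 rose and 0 fell in uninduced clone 1, 2 and 0 in uninduced clone 2, 4 and 0 in stimulated clone 1, and 1 and 0 in stimulated clone 2. The shares were 8.33%, 16.7%, 33.3% and 8.33% of the list's tested genes, beside 15.1%, 15.1%, 19.0% and 16.9% of all genes. Their summed level was 287 to 308 CPM in uninduced WT cells, 451 to 469 CPM in clone 1 and 427 to 449 CPM in clone 2, and after stimulation 399.6 to 425, 704 to 808 and 473 to 497 CPM. Both clones, in which *Cdkn1a* was higher, lay above WT cells in this summed level under both treatments. *Top2a* had log2 fold changes of 0.94 and 0.73 in uninduced and 1.44 and 0.65 in stimulated clones 1 and 2, *Mki67* had 1.19 and 1.77 in uninduced and 1.49 and 1.10 in stimulated clones 1 and 2, *Plk1* had 0.87 and 1.13 in uninduced and 0.95 and 0.26 in stimulated clones 1 and 2 and *Ccnb1* had 0.56 and -0.29 in uninduced and 1.10 and -0.59 in stimulated clones 1 and 2. The part of the fraction of dividing cells in the values of the members was not tested.

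Several members also answer to the integrated stress response, in which ATF4 and CHOP act. Of 10 genes of this response, 2 rose and 0 fell in uninduced clone 1, 6 and 0 in uninduced clone 2, 1 and 0 in stimulated clone 1, and 2 and 0 in stimulated clone 2. In all, they were 20%, 60%, 10% and 20% of the list's tested genes, beside 15.1%, 15.1%, 19.0% and 16.9% of all genes. Their summed level was 492 to 527 CPM in uninduced WT cells, 792 to 797 CPM in clone 1 and 1025 to 1091 CPM in clone 2, and after stimulation 973 to 1064, 863 to 902 and 1265 to 1329 CPM. *Trib3*, a pseudokinase gene, had log2 fold changes of 0.96 and 2.71 in uninduced and 0.20 and 1.75 in stimulated clones 1 and 2, and *Ddit3*, the CHOP gene, had 0.45 and 2.20 in uninduced and 0.42 and 2.22 in stimulated clones 1 and 2. *Phgdh*, a gene of serine synthesis, had 1.004 and 1.67 in uninduced and -0.81 and -0.011 in stimulated clones 1 and 2, and *Atf3* had 0.70 and 1.82 in uninduced and -0.64 and 0.88 in stimulated clones 1 and 2 at group means of 0.406 to 3.92 CPM. The part of this response in the values of the members was not tested.

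Levels can be compared between genes only per length. In uninduced WT cells the highest members were *Phlda3*, *Ak1*, *Ccng1*, *Bax*, *Plk2* and *Trp53*, with means of 90.3, 64.9, 59.6, 44.5, 38.1 and 36.5 CPM per kb of exonic length. *Cdkn1a* followed at 35.4 CPM per kb in these cells and at 17.5 after stimulation, against 82.4 and 71.1 in clone 1 and 73.8 and 80.2 in clone 2. The lowest members were *Ddb2*, *Pidd1*, *Gdf15* and *Pmaip1*, each below 1 CPM per kb.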

How the data were processed

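Poly(A) RNA from 10T1/2 cells was sequenced as paired-end 150 bp reads on an Illumina NovaSeq instrument. The authors mapped the reads to GRCm38/mm10 with HISAT2 v2.1.0 and deposited raw counts per gene for the 18 libraries in 1 table, with no normalization. Which program counted the reads, on which annotation release and with which strand setting, is not given in the sources used here. Gene positions in the table were compared with GENCODE M21, and 53548 of 54495 were equal.

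The analysis used edgeR 4.0.16 in R 4.3.3 (filterByExpr by group with a minimum count of 10, TMM, glmQLFit with robust estimation, glmQLFTest) with 1 coefficient per group over the 6 groups, fitted to all 14317 genes passing the filter. A call required a change above 2-fold and an adjusted p (Benjamini-Hochberg) below 0.05, the thresholds in the methods of the study, which name DESeq2. The SE of a log2 fold change is its absolute value divided by the square root of F. CPM are TMM-normalized. A group with no count was set to 3 counts over the group. Alternatives were DESeq2 1.42.0, its size factors in edgeR, no filter beyond 1 count, no fold threshold, a block for the replicate number and each library left out. The procedure was checked on simulated data. p53 decamers were searched in the 250 bases before RefSeq starts (GRCm38.p6), and the 50 bases after the start were not searched.

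Library totals ran from 15576685 to 42005596 counts. Replicates of a group correlated with an r of 0.963 to 0.993 across genes, and their counts differed by more than counting error (chi-square divided by its degrees of freedom 3.13 to 14.6 over 18 pairs), so no library was counted as a duplicate. The members and the other gene lists were chosen with earlier results of these data known, and no test over a list was made. Values in every library are given for *Trp53*, *Mdm2*, *Cdkn1a*, *Ccng1* and each member called in a comparison of a clone with WT cells or in a difference of response. Other members are given by their range. From each pathway list at most 4 called genes with the widest change are named.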

Additional observations from a re-analysis of the deposited data

Results flagged for a closer look

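The response to TGF-β1 + DMII differed between a clone and WT cells for 10 members, past 2-fold and the adjusted p in the test of the difference itself (edgeR, over 14317 genes). By clone these were 5 of 33 tested members (15.2%) for clone 1, beside 8.81% of all genes, and 8 of 33 (24.2%) for clone 2, beside 7.85%. In both clones the difference of log2 fold changes was above 0 for *Trp53inp1* (clone 1 1.501 (SE 0.0967, adjusted p = 4.13e-13), clone 2 1.83 (SE 0.0973, adjusted p = 8.92e-15)), *Dram1* (1.03 and 1.95) and *Dcxr* (1.54 and 1.82). For clone 1 it was also past the thresholds for *Plk2*, at -1.51 (SE 0.102, adjusted p = 1.19e-11), and for *Fas*, at -1.60 (SE 0.117, adjusted p = 2.83e-12). For clone 2 it was past them for *Cdkn1a* at 1.13 (SE 0.0813, adjusted p = 2.24e-12), *Btg2* at 1.59 (SE 0.202, adjusted p = 2.01e-05), *Gadd45a* at 1.34 (SE 0.120, adjusted p = 2.70e-10) and *Plk3* at 1.63 (SE 0.198, adjusted p = 1.09e-07). *Ckap2* differed the other way in clone 2, at -1.19 (SE 0.173, adjusted p = 2.40e-06). All 3 libraries of each group entered these values, and both clones are compared with the same WT libraries.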

How the results depend on the processing

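Of 57 values of members past the thresholds over the 11 comparisons, none reversed and 49 stayed past them in every alternative. All 57 stayed past them with DESeq2, with DESeq2 size factors in edgeR and with the replicate number as a block. Without the filter, 4 moved just under 2-fold (*Cdkn1a*, *Btg2* and *Ddb2* in the WT response at -0.97, -0.99 and -0.99, and *Dram1* in the difference of clone 1 at 0.999). Leaving out 1 library took 8 values under a threshold. They were *Cdkn1a* in uninduced clone 2, *Btg2* and *Apaf1* in uninduced clone 1, *Plk3* in the response of clone 1, *Dram1* in the difference of clone 1, and *Cdkn1a* (-0.93 to -0.996), *Btg2* (-0.94 to -0.999) and *Ddb2* (-0.89 to -0.99) in the WT response. All were within 1.5 times of the value with all libraries. In these fits *Ddb2* also missed the adjusted p (0.0660 to 0.0922, edgeR), and the others kept it. Values that came past the thresholds were those of *Perp* in the response of clone 1 (DESeq2, no filter or 1 library left out), *Pmaip1* in both stimulated clones and the WT response and *Plk2* in the difference of clone 2 (no filter or 1 library left out), and, with 1 library left out, *Plk3* in uninduced clone 2 and the WT response, *Ckap2* in uninduced clone 1, *Ddb2* in both comparisons and the response of clone 1, and *Pidd1* in stimulated clone 2 and the difference of clone 1.

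Without a fold threshold, 19, 23, 21 and 26 members passed in uninduced clones 1 and 2 and stimulated clones 1 and 2, 25, 22 and 21 in the responses of WT cells and clones 1 and 2, 16 and 17 in the differences of response, and 18 and 18 between uninduced and stimulated clones. The shares of all genes at this threshold are given with each comparison above. With 1 library left out, the counts with the threshold, in the same order, ran from 4 to 6, 2 to 4, 7 to 9 and 10 to 12, then 6 to 8, 4 to 6 and 6 to 6, then 4 to 5 and 8 to 9, and 0 to 0 and 1 to 1. Scaling moved the median of all genes by less than 0.1 on the log2 scale. With the replicate number as a block the counts were 5, 3, 7, 10, 7, 5, 6, 5, 8, 0 and 1, the same as without it. The labels do not say whether the numbers pair the libraries. The deviations of 45 same-numbered pairs correlated with an r of -0.0412 to 0.0498, and 4 of 18 libraries correlated best with their own number. No strong shift shared by number was therefore seen. Members with few counts (*Perp*, *Pmaip1*, *Pidd1*, *Gdf15*, *Ddb2*) are limited by depth.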
